A study of Mus musculus with 34 samples.

Results

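The comparison described here is that of immature dopaminergic-lineage neurons with 1 copy of the mouse 7qF3 region against control neurons, taken at day 16 of differentiation. Its members are 6 of the 28 RNA libraries of the study, chosen by their labels: 4 control libraries, numbered 1 to 4, and 2 deletion libraries, numbered 1 and 3. The cells were embryonic stem cells (ESCs) and their progeny, labelled with the background strain C57BL/6N and, as genotype, 129Sv +/+ for control and 129Sv df/+ for the heterozygous deletion. A further 2 neuron libraries, labelled 129Sv df/dp, carried the deletion on one chromosome and a duplication on the other, and the same genotypes were also sequenced as ESCs and as neural progenitor cells (NPCs) at day 5. The neurons were grown by way of epiblast stem cells, and the labels name no treatment that differs between genotypes. The cell lines were made in an earlier study, and the labels do not say how many clones or cultures the libraries stand for, so p-values measure the spread between these libraries only.

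Mouse 7qF3 shares its gene order with human 16p11.2, and copy number changes there are found in people with autism. Loss of 1 copy of a gene commonly lowers its RNA in proportion, although single genes can depart from this. Midbrain dopaminergic neurons arise from the floor plate, a ventral strip of the neural tube, under the transcription factors Foxa2 and Lmx1a and, near the isthmus, En1 and En2, and they make dopamine with the enzymes Th and Ddc. Clustered protocadherins are cell adhesion molecules of which each neuron uses a few, through a choice between alternative promoters.

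Depth ran from 41892753 to 56031950 counts in the 8 neuron libraries. The largest single entry took 38.8%, 28.4%, 21.4% and 19.6% of the counts of controls 1 to 4, and 36.8% and 24.3% of those of deletions 1 and 3. With that entry left out of the total, mitochondrial entries took 4.35%, 5.51%, 1.63% and 1.48% of the controls' counts and 2.96% and 1.65% of the deletions'. On the first principal component, with 34.5% of the variance, controls 1 and 2 and deletion 1 lay on one side (-57.2, -33.7 and -98.6), and controls 3 and 4 and deletion 3 on the other (86.2, 80.1 and 82.6). The spread within each genotype is therefore wide, and deletion 1 lay farthest out. The labels name no batch for these libraries.

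Of 17931 genes tested with edgeR's quasi-likelihood test, 0 passed an adjusted p of 0.05 (0% of the genes). At an unadjusted p below 0.05, 309 genes were lower in the deletion (1.72%) and 342 higher (1.91%). The smallest adjusted p was 0.165, shared by 4 genes. DESeq2, run as an alternative, called 54 genes lower (0.307% of those it gave an adjusted p) and 14 higher (0.0795%), limma-voom called 0, and the authors' deposited table, also made with DESeq2, called 34 lower and 10 higher. Of the 44 genes that the authors' deposited table called, 42 were among the 68 of the DESeq2 alternative, which is 95.5% of the former and 61.8% of the latter. Because no gene passed the main test, the values below are given by library, with a statement of whether the deletion libraries lay outside the range of the controls. Over all genes tested, 935 were lower in both deletion libraries than in every control (5.21%) and 840 were higher (4.68%).

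The deleted region itself was expressed at a lower level in both deletion libraries. The list of the interval held 33 genes, of which 29 were tested; 4930451I11Rik, AI467606, Zg16 and Spn did not pass the filter on low counts. All 29 estimates were below 0, from -1.53 for Ppp4c to -0.11 for Aldoa, with a median log2 fold change of -0.92 against -0.03 over all genes tested. For 14 of the 29, both deletion libraries lay below every control, and for 0 they lay above. An unadjusted p below 0.05 was found for 9 members and an adjusted one for 0, while DESeq2 called 1, Cdipt. Estimates of 22 members lay within 0.5 of -1, the log2 value of 1 copy out of 2. Interval genes with coordinates, 28 in number, span 529.5 kb of chromosome 7, from 133832441 to 134361959 in the build mm9, as the authors' deposited table gives them.

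Outside the region, estimates were closer to 0 than inside, though more often below 0 than above. Genes that begin within 1000 kb before the interval had a median log2 fold change of -0.11 (16 tested, 0 below all controls), and those after it -0.18 (49 tested, 36 with estimates below 0, 2 below all controls and 1 above). Of 38 tested genes of a list of the flanks, 71.1% had estimates below 0, against 53.3% of all genes tested. The median flank gene stood at -0.44 on the log2 scale relative to the control mean in deletion 1 and at 0.11 in deletion 3, against -0.23 to 0.20 in the controls. Next to the interval, Sult1a1, a sulfotransferase gene, lay at -0.23 on one side and Gm4532 at 0.34 on the other, each with overlapping libraries. Inside, the first gene Giyd1, also named Slx1b, which encodes a subunit of a structure-specific nuclease, lay at -1.28. Mylpf and Sept1 at the far end had mean control levels of 0.298 and 0.134 CPM (counts scaled to library size), too low for the estimates of -0.26 and -0.22 to be told from either 0 or -1.

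**Figure D1:**
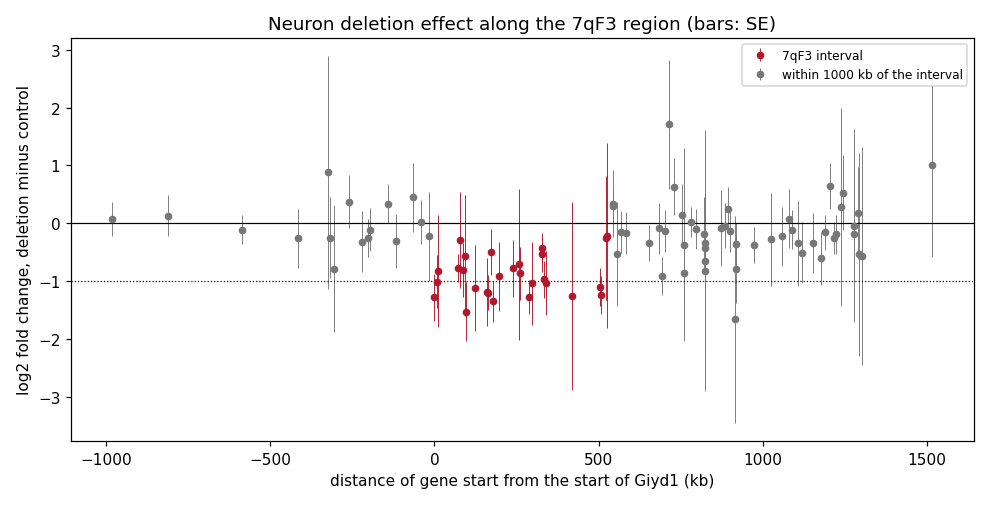
Log2 fold change of deletion over control neurons (vertical axis, bars are SE) against the distance of each gene's start from the start of Giyd1 in kb, for 28 interval genes (red) and genes within 1000 kb on either side (grey); the dotted line is at -1. Interval genes lie around -1 with a median of -0.95, and the neighbours have medians of -0.11 and -0.18.

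Per library, the loss was deeper in deletion 1 than in deletion 3. The median interval gene stood at 80.1%, 86.4%, 120% and 104% of the control mean in controls 1 to 4. In deletion 1 it stood at 36.1% and in deletion 3 at 64.8%, which gives 50.4% ± 20.2 (SD) against 97.7% ± 18.1 (SD) in the controls. Both deletion libraries lay below the 4 controls. The 20 members with at least 5 CPM in the control mean gave 39% and 57.6%.

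**Figure D2:**
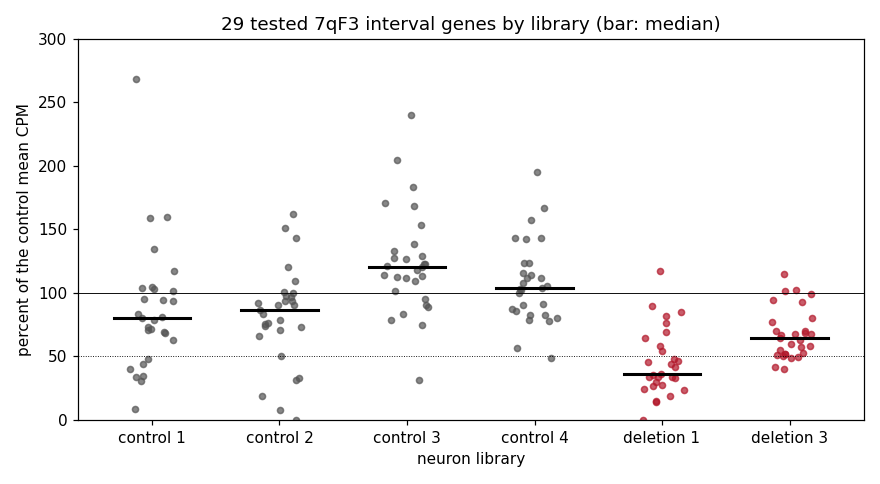
Level of each of the 29 tested interval genes in percent of its control mean (vertical axis) in the 4 control (grey) and 2 deletion (red) neuron libraries, with the median as a bar and dotted and solid lines at 50% and 100%. The medians are 36.1% and 64.8% in the deletion libraries and 80.1% to 120% in the controls.

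The promoters of a few members are shown because their genes differ in these libraries: the first 3 lay well below 0 in the deletion, Aldoa lay near 0, and P4ha2 was high in deletion 1. Sequences are from RefSeq, build GRCm38.p6, and lie before the start of transcription, written in the direction of the gene. The motif ACGTG, the core bound by hypoxia-inducible factors, was searched on both strands (as ACGTG or CACGT) in the 250 bases before each start and is in capitals where found; it is also contained in the E-box CACGTG. Slx1b and Bola2 are transcribed away from each other from starts 217 bases apart (chr7:126695784-126695999, minus strand as shown, the 216 bases between them). The other windows hold 250 bases: Taok2 (chr7:126884968-126885217, minus strand), the start of Aldoa richest in CpG (chr7:126799255-126799504, minus strand), and P4ha2, a gene of the hypoxia list outside the interval (chr11:54100674-54100923, plus strand).
Slx1b and Bola2: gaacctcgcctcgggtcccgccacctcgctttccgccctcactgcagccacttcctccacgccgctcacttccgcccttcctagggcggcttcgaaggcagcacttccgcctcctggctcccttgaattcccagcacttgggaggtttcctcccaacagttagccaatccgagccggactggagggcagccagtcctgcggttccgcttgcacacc
Taok2: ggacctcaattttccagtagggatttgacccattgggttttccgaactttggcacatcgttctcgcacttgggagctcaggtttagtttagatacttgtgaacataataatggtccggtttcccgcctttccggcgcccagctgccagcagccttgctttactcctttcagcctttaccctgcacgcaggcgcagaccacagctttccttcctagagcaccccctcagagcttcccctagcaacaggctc
Aldoa: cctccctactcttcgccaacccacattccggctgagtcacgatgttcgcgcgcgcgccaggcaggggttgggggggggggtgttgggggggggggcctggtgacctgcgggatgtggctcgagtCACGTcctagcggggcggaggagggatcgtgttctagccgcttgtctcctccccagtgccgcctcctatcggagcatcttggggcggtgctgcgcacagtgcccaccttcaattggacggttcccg
P4ha2: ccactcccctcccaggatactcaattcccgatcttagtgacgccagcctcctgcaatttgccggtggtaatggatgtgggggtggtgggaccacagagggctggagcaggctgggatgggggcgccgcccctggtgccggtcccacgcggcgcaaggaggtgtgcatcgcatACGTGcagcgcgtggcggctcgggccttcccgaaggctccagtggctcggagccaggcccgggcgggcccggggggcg
The motif was found once in the Aldoa and once in the P4ha2 window, and in neither of the other windows. Of all 27025 genes with a promoter in the table, 18.5% held it, and of those tested here 24.3%. It was held by 5 of 22 tested interval genes with a promoter (Aldoa, Cd2bp2, Gdpd3, Ino80e and Kif22), by 9 of 13 genes of the hypoxia list and by 8 of 18 of the glycolysis list. Such a match is a description of the letters, not of a bound site.

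Among the interval's signalling genes, Mapk3 encodes the kinase ERK1 of the MAPK pathway. Its level was 52, 48.3, 58.5 and 46.9 CPM in controls 1 to 4 and 29.9 and 30.6 CPM in the deletion libraries, a log2 fold change of -0.77 ± 0.243 (SE). The groups did not overlap, and both deletion libraries stood close together at 58.1% and 59.5% of the control mean. Taok2, a kinase with a role in dendrite growth, was at 55.3, 81.2, 102 and 83.7 CPM in the controls and at 21.7 and 41.4 CPM in the deletion, or -1.35 ± 0.356 (SE). No deletion library reached a control. Ppp4c, the catalytic subunit of protein phosphatase 4, had the lowest estimate of the interval, -1.53 ± 0.513 (SE), from 19.1, 24.8, 30.3 and 33.2 CPM in the controls and 3.77 and 14.8 CPM in the deletion. Its deletion libraries differed between themselves more than those of Mapk3.

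Cdipt, the enzyme that makes phosphatidylinositol, was at 25.5, 29.6, 33.5 and 34.2 CPM in the controls and 10.2 and 15.1 CPM in the deletion, or -1.28 ± 0.289 (SE). It had the smallest p of the interval, with an adjusted p of 0.839 by edgeR and of 0.0138 by DESeq2. Ino80e, a subunit of the INO80 chromatin remodeller, was at 27.1, 19.7, 18 and 15.9 CPM in the controls against 9.23 and 8.34 CPM, or -1.20 ± 0.31 (SE). Both of its deletion libraries lay under the lowest control. Maz, a zinc finger transcription factor, Cd2bp2, a spliceosome component, and Tbc1d10b, a Rab GTPase-activating protein, lay at -0.97, -1.10 and -1.24, without overlap. Giyd1 was at 9.04, 6.34, 10.6 and 8.61 CPM in the controls and at 2.59 and 4.53 CPM in the deletion, and its neighbour Bola2, which serves iron-sulfur cluster transfer, at 4.5, 3.41, 5.39 and 5.96 against 1.64 and 3.12 CPM. Neither of this divergent pair overlapped between groups, with -1.28 ± 0.404 and -1.01 ± 0.454 (SE).

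Synaptic and neuronal members had estimates below 0 with more spread. Doc2a, a calcium sensor of vesicle release, was at 4.26, 4.07, 9.45 and 6.91 CPM in the controls and 1.52 and 3.86 CPM in the deletion, or -1.19 ± 0.586 (SE), without overlap. Prrt2, a presynaptic protein linked to paroxysmal movement disorders, was at 33.3, 38.5, 30.5 and 25.8 against 27.2 and 16.7 CPM, or -0.54 ± 0.301 (SE). Deletion 1 lay within the control range for Prrt2. Kctd13, an adaptor of the cullin 3 ubiquitin ligase, ran from 15.1 to 49 CPM in the controls and was at 23.6 and 12.3 CPM in the deletion, or -0.78 ± 0.489 (SE), with overlap. Sez6l2, a neuronal membrane protein, was at 43.9, 47.5, 103 and 46.8 CPM against 25.3 and 40.7 CPM, without overlap (-0.87 ± 0.462, SE).

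Other members had values as follows. Mvp, the major vault protein, lay at -1.04 and Kif22, a mitotic kinesin, at -1.03, the first with overlap and the second without. Hirip3, which binds histones, lay at -0.50 with overlap and 2900092E17Rik at -0.43 without. Fam57b, Coro1a, an actin regulator, Ypel3, Tmem219, Asphd1 and Tbx6, a T-box factor, lay at -1.12, -0.83, -0.81, -0.92, -0.71 and -0.56, each with overlap. Coro1a is a case of spread within the controls, at 3.32, 1.82, 20.1 and 14 CPM against 1.86 and 9.12 CPM. Gdpd3 and Qprt, at mean control levels of 0.63 and 0.19 CPM, lay at -0.29 and -1.26.

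Aldoa, the glycolytic enzyme aldolase A, was the member nearest to 0. Its level was 479, 233, 620 and 530 CPM in controls 1 to 4 and 547 and 318 CPM in deletions 1 and 3, or -0.11 ± 0.416 (SE). Deletion 1 thus stood at 117% of the control mean, while the median interval gene stood at 36.1% in that library. Deletion 3 stood at 68.4%, with an interval median of 64.8%. Control 2 stood at 50% for Aldoa, and the neuron libraries with deletion and duplication at 59.5% and 81.1%. The level of deletion 3 thus lay within their range. In the same libraries the genes of the hypoxia list were high in deletion 1, as described below; the part of this in the level of Aldoa was not tested.

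The interval was also set against the deletion effect in the other stages, with a test of the difference in a joint fit of all stages. The median effect over the interval was -0.71 in NPCs and -1.29 in ESCs. The difference of neurons from NPCs had an unadjusted p below 0.05 for 0 of the 29 members, against 3.1% of all genes, and that from ESCs for 2, against 2.85% of all genes. Those were Aldoa, with a difference of 1.32 (unadjusted p by edgeR 0.0225), and 2900092E17Rik, with 1.17 (0.00319), and neither passed the adjusted threshold. Aldoa lay at -0.95 in NPCs and at -1.45 in ESCs.

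Neurons with both the deletion and the duplication gave a further comparison, although this contrast shares the deletion libraries with the one above. The median interval gene stood at 88.1% and 86% of the control mean in these libraries. Estimates of deletion minus duplication-deletion were below 0 for 24 of 29 members, with a median of -0.97, and 10 had an unadjusted p below 0.05 against 4.55% of all genes. Over all genes, 6 passed the adjusted threshold (0.0335%), 0 of them in the interval. Among them was Snrpn, at 38.7 and 46.6 CPM in the deletion against 3.01 and 3.63 CPM. Ddx3y, a gene of the Y chromosome, was at 134 and 93.8 against 16.3 and 9.86 CPM. These libraries therefore differ in more than interval copy number, and its part in the contrast was not tested.

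Genes that mark dopaminergic neurons were lower in both deletion libraries as a group, although 0 passed the main test. Of 22 members, 20 had estimates below 0, with a median of -1.23. For 11, both deletion libraries lay below every control, against 5.21% of all genes tested. DESeq2 called 4 lower, which were Ddc, En1, En2 and Chrna6, against 0.307% of all genes. The median member stood at -0.24, 0.70, 0.05 and -0.46 on the log2 scale relative to the control mean in controls 1 to 4 and at -1.13 and -1.11 in the deletion libraries. Unlike the interval, both deletion libraries had nearly the same list median here. Single members still differed between them, in opposite directions for Th and Aldh1a1, as given below. In bulk RNA, fewer cells of a type and less RNA per cell cannot be told apart.

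En2, a transcription factor of the isthmus and midbrain, was the leading member. It was at 44.4, 56.1, 51.2 and 24.7 CPM in the controls and at 4.79 and 4.07 CPM in the deletion, or -3.31 ± 0.702 (SE), with an adjusted p of 0.672 by edgeR and 2.76e-05 by DESeq2. Its relative En1 was at 49.2, 95.1, 66 and 40 against 14.1 and 12.9 CPM, or -2.21 ± 0.569 (SE). Both deletion libraries lay far under the lowest control for both genes. Chrna6, a nicotinic receptor subunit of dopaminergic neurons, was at 26.9, 51.9, 23.2 and 20.5 against 3.96 and 1.91 CPM, or -3.38 ± 0.784 (SE), also without overlap.

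The enzymes of dopamine synthesis followed. Th, the rate-limiting enzyme, was at 40.5, 112, 91.3 and 89.5 CPM in the controls and 13.1 and 37.3 CPM in the deletion, or -1.72 ± 0.67 (SE). Deletion 3 was only just under control 1. Ddc, which makes dopamine from L-DOPA, was at 124, 182, 181 and 157 against 44 and 52.3 CPM, or -1.74 ± 0.467 (SE), with a wide gap. Aldh1a1, an aldehyde dehydrogenase of a subset of these neurons, was at 275, 174, 173 and 145 against 96.5 and 25.5 CPM, or -1.65 ± 0.553 (SE). The dopamine transporter Slc6a3 overlapped, with 14.8 CPM in control 1 and 15.9 CPM in deletion 1, at -2.25 ± 0.736 (SE). Factors of the lineage as a whole were nearer to 0: Foxa2 lay at -0.32, Nr4a2 at -0.07 and the receptor Gfra1 at 0.05, each with overlap. Slc18a2, the vesicular monoamine transporter, was at 0 CPM in control 1 and at 33.4, 49.8 and 57.9 CPM in the other controls, against 2.01 and 29.2 CPM in the deletion. Both libraries numbered 1 were thus low for Slc18a2.

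Serotonergic genes, which mark a neighbouring hindbrain cell type, were lower too. All 8 tested members had estimates at or below 0, with a median of -2.33. Of these, 6 were lower without overlap, against 5.21% of all genes tested. DESeq2 called Fev and Gata2. Fev, a factor that specifies serotonergic neurons, was at 3.23, 2.65, 2.85 and 2.3 CPM in the controls and at 0.653 and 0.172 CPM in the deletion, or -2.74 ± 0.726 (SE). The serotonin transporter Slc6a4 was at 11.6, 13.8, 34.8 and 70.3 against 9.4 and 1.76 CPM, so deletion 1 came close to control 1. Gata2 and Gata3, factors of hindbrain and midbrain neurons, lay at -2.70 and -2.10 without overlap. The members with overlap were Insm1, a general neuroendocrine factor, at -0.00, and Tph2, at -1.61. Tph2 was at 27, 25.2, 38.8 and 84.7 CPM in the controls and at 25.8 and 2.96 CPM in the deletion. The median member stood at -1.52 in deletion 1 and -2.95 in deletion 3, against -0.33 to 0.22 in the controls. In the neuron libraries with deletion and duplication it stood at -0.28 and -1.24, so 1 of these was low as well.

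**Figure D3:**
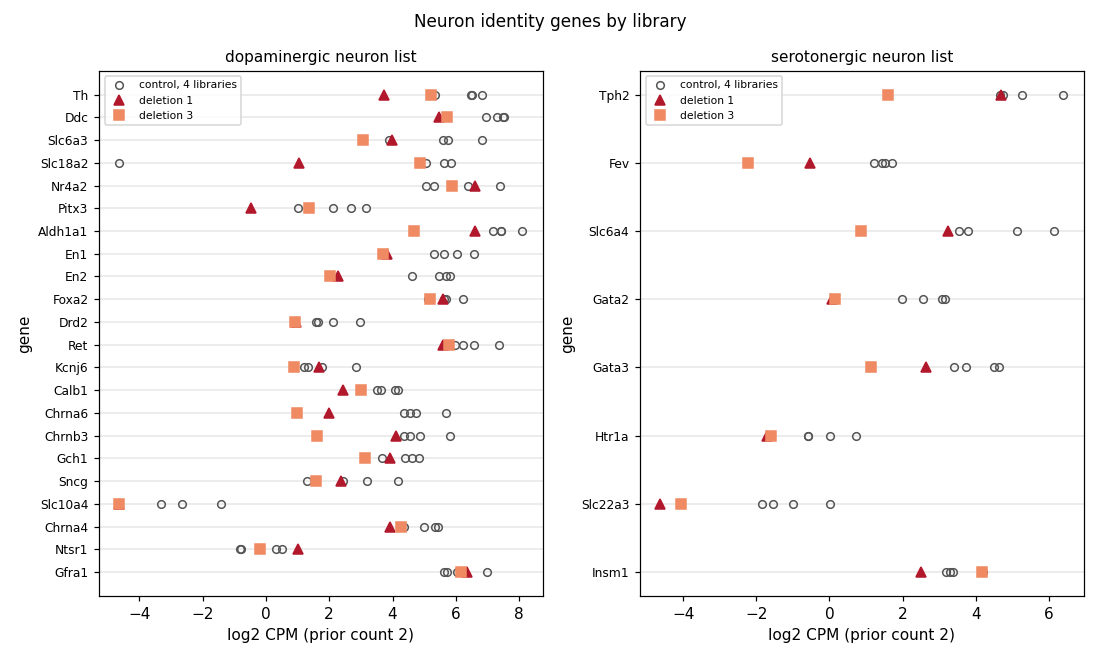
Log2 CPM (horizontal axis, prior count 2) of each tested gene of the dopaminergic list (left) and the serotonergic list (right), with 4 control libraries as open circles, deletion 1 as a triangle and deletion 3 as a square. Both deletion libraries lie left of every control for 11 of 22 and 6 of 8 genes.

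Pan-neuronal genes did not show the same pattern. Of 21 tested, 14 had estimates below 0, with a median of -0.27, and 0 lay outside the control range in either direction. The leading member by p was Chgb, a secretory granule protein, with 428, 524, 249 and 204 CPM in the controls and 1287 and 368 CPM in the deletion. Its deletion libraries lay on different sides of the highest control. Synaptic vesicle and release genes had a median of -0.19 over 27 members, with 3 lower and 1 higher without overlap and the others overlapping. Over all genes tested, the shares without overlap were 5.21% lower and 4.68% higher. Syt1, the calcium sensor of fast release, was at 72.5, 94.9, 97.3 and 88.4 against 46.4 and 43.2 CPM, or -0.98 ± 0.304 (SE), without overlap. Sv2b, a vesicle glycoprotein, lay on the other side, at 17, 17.5, 5.74 and 11.2 against 31.2 and 28.2 CPM, or 1.21 ± 0.415 (SE). Astrocyte genes had a median of -0.06, where Gfap, an intermediate filament of astrocytes, was at 60.9, 75.5, 70.6 and 129 against 41.5 and 30.8 CPM. Gfap was also low in the neuron libraries with deletion and duplication, at 36.5 and 46.9 CPM. Summed over their lists, pan-neuronal genes ran from 3959 to 7199 CPM in the controls and were at 6838 and 4884 CPM in the deletion. The part of cell makeup in the other results was not tested.

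Other transmitter and regional genes went in both directions. GABAergic genes had a median of -0.74 over 15 members, of which 3 were lower without overlap and 1 higher, against 5.21% and 4.68% of all genes. Tal2, a factor of midbrain GABAergic neurons, was at 14.6, 4.42, 5.05 and 1.57 against 0.193 and 0.689 CPM, or -3.84 ± 1.05 (SE), and was called by DESeq2. Calb2, the calcium-binding protein calretinin, was at 16.9, 8.02, 10 and 10.9 against 32 and 42.6 CPM, or 1.70 ± 0.334 (SE), and was called by DESeq2 as higher (adjusted p 0.0064). Gad1 and Gad2, which make GABA, lay at -0.74 and -0.99 with overlap. In the glutamatergic list, with a median of -0.10, the vesicular transporter Slc17a6 was at 104, 124, 87.1 and 59.1 against 154 and 201 CPM, and Slc17a8 at 16.9, 27.3, 35 and 48.6 against 15.9 and 2.58 CPM. These transporters lay on opposite sides of the controls without overlap. In the neuron libraries with deletion and duplication, Slc17a8 was low as well, at 13.1 and 10.4 CPM, while Slc17a6 was at 118 and 99.8 CPM.

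Progenitor and forebrain lists held genes on both sides of the controls. Neural progenitor genes had estimates below 0 for 13 of 18, with a median of -0.24. Without overlap, 2 of them, Sox1 and Fabp7, were lower and 0 higher. Over all genes tested, these shares were 5.21% and 4.68%. Sox1, a factor of neural stem cells, was at 51.9, 33, 30.4 and 21.1 CPM in the controls and at 19.7 and 10.1 CPM in the deletion. Floor plate genes had a median of 0.25 over 19 members, with 4 higher and 0 lower without overlap. Their median member stood at -0.07 and 0.28 in deletions 1 and 3, within the controls' range of -0.37 to 0.63. Neurog2, the proneural factor, was at 6.15, 9.81, 5.13 and 3.51 CPM in the controls and at 18.2 and 18 CPM in the deletion, or 1.56 ± 0.411 (SE). Lmx1a was at 40.1, 93.9, 39 and 49.7 against 125 and 107 CPM, or 1.06 ± 0.369 (SE), and Rspo2, an enhancer of Wnt signalling, lay at 1.49 ± 0.463 (SE). None of these overlapped. The forebrain list had a median of 0.71 over 11 members, with 4 higher and 1 lower without overlap. Nkx2-1, a factor of hypothalamus and ventral forebrain, was at 0, 0.331, 0.14 and 0.166 CPM in the controls and at 0.58 and 6.39 CPM in the deletion, so most of its estimate of 4.43 rests on deletion 3. Isthmus and hindbrain genes had 6 members tested and a median of -1.39, led by Pax5, with 5.17, 5.56, 3.13 and 0.393 against 0 and 0.172 CPM.

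Clustered protocadherins showed isoform-specific differences. Pcdhg isoforms share constant exons and Pcdhb genes are similar to each other, so their estimated counts are uncertain. The study's title names the family, so these lists are not independent evidence. The Pcdhg list had a median of -0.38 over 22 members, with 5 lower and 3 higher without overlap, against 5.21% and 4.68% of all genes. DESeq2 called 3 lower (Pcdhga7, Pcdhgb1 and Pcdhgb2) and 1 higher (Pcdhgb6). Pcdhgb2 was at 39.5, 55.4, 102 and 95 CPM in the controls and at 6.33 and 6.39 CPM in the deletion, or -3.52 ± 0.461 (SE), with an adjusted p of 0.165 by edgeR and 1.93e-12 by DESeq2. Both deletion libraries stood at nearly one level.

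Further isoforms lay on both sides. Pcdhgb1 was at 14.8, 25.5, 26.9 and 22.7 against 3.41 and 4.09 CPM, or -2.58 ± 0.353 (SE). Pcdhga7 was at 10.1, 15.3, 19 and 16.7 against 3.31 and 2.66 CPM, or -2.36 ± 0.371 (SE). Pcdhgb6 was the reverse, at 33.7, 34.7, 26.5 and 31.4 against 80.2 and 107 CPM, or 1.57 ± 0.26 (SE). Pcdhga3 and Pcdhgb8 were higher without overlap as well, at 1.99 and 1.03, while Pcdhgb4 and Pcdhgb5 were lower, at -1.16 and -1.71. Pcdhgc3, the most abundant member, was at 195, 219, 193 and 162 against 249 and 187 CPM, with overlap. The summed level of the cluster was 503 to 616 CPM in the controls and 588 and 521 CPM in the deletion, within the control range.

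NPC libraries are separate, but the labels do not say whether their clones are. In NPCs, the isoforms called by DESeq2 in neurons had deletion effects of -3.38 for Pcdhgb2, -1.28 for Pcdhgb1, -2.28 for Pcdhga7 and 1.08 for Pcdhgb6. The neuron libraries with deletion and duplication were at 12.3 and 13.4 CPM for Pcdhgb2, but at 26.8 and 24.8 CPM for Pcdhgb1 and at 21.3 and 27.4 CPM for Pcdhga7. Of 21 Pcdhb genes, 20 had estimates above 0, with a median of 0.43, and 8 were higher without overlap, against 4.68% of all genes. The median Pcdhb gene stood at 0.65 and 0.47 in deletions 1 and 3, against -0.51 to 0.47 in the controls. In the neuron libraries with deletion and duplication it stood at 0.75 and 0.80, so the higher level was not particular to the deletion. Pcdhb16 was at 44.1, 39.6, 34.4 and 23.1 against 71.7 and 65.1 CPM, or 0.95 ± 0.287 (SE). The Pcdha list had a median of 0.46 over 14 members, of which 1 was higher without overlap.

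**Figure D4:**
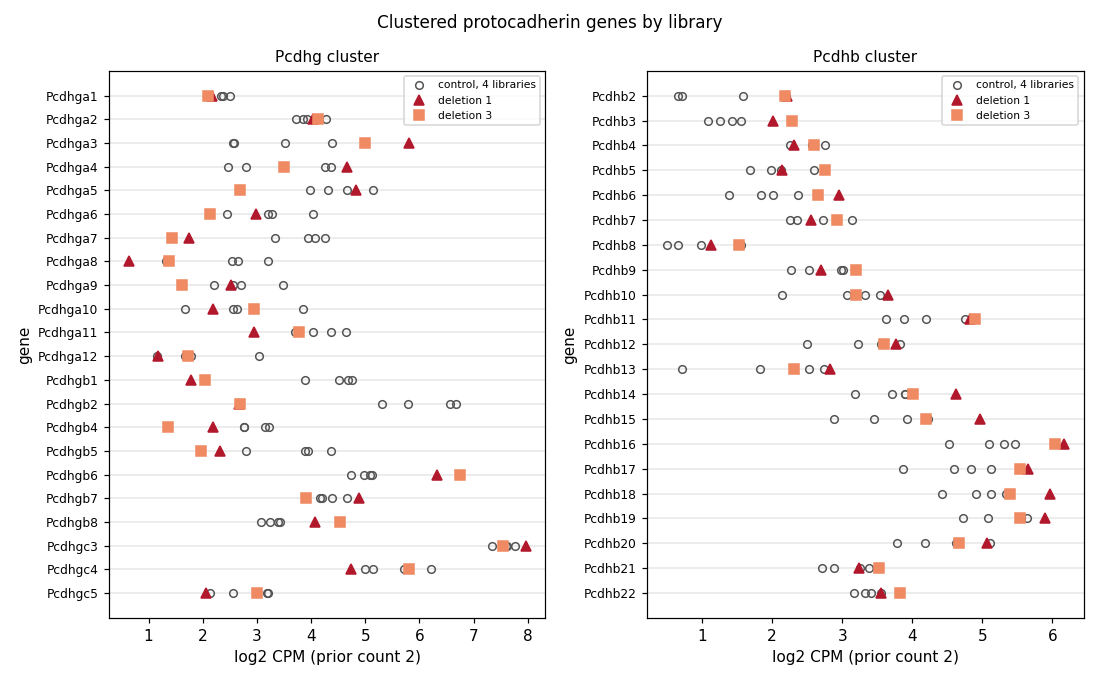
Log2 CPM (horizontal axis, prior count 2) of the tested Pcdhg (left) and Pcdhb (right) genes, with 4 control libraries as open circles, deletion 1 as a triangle and deletion 3 as a square. Pcdhgb2, Pcdhgb1 and Pcdhga7 lie left of the controls and Pcdhgb6 right of them in both deletion libraries.

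Among genes outside the interval, those with the smallest p in each direction were fixed by rule. On the lower side they were 4933403G14Rik, Pcdhgb2, Adarb2, Pcdhgb1 and Adar3. Adarb2, an RNA-binding relative of the adenosine deaminases, was at 31.4, 23.3, 25.9 and 23.4 CPM in the controls and at 4.57 and 4.4 CPM in the deletion, or -2.54 ± 0.339 (SE), with an adjusted p of 0.165 by edgeR; the entry Adar3 overlaps it and lay at -2.41, so their counts are not independent. The transcript 4933403G14Rik was at 7.25, 4.8, 7.78 and 8.21 against 0.169 and 0.459 CPM, or -4.45 ± 0.581 (SE). On the higher side they were Pcdhgb6, Cpeb1, Dsp, BC064451 and Calb2. Cpeb1, a regulator of cytoplasmic polyadenylation, was at 12.6, 12.2, 13.9 and 10.8 against 62.9 and 25.2 CPM, or 1.83 ± 0.346 (SE). Dsp, the desmosomal protein desmoplakin, was at 1.39, 1.99, 0.582 and 1.1 against 12.1 and 5.68 CPM. Each of these 10 lay outside the control range in both deletion libraries.

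Hypoxia genes were high in deletion 1 and not in deletion 3. All 16 tested members had estimates above 0, with a median of 1.21, but 0 lay outside the control range in both libraries. The median member stood at 0.26, -1.02, 0.25 and 0.23 in controls 1 to 4, at 1.99 in deletion 1 and at 0.15 in deletion 3. Ndrg1, a stress-responsive gene, was at 71.5, 37.2, 35.6 and 29.7 CPM in the controls and at 246 and 43.7 CPM in the deletion. Ero1l, an oxidase of the endoplasmic reticulum, was at 160, 40.1, 95.6 and 105 against 639 and 99.3 CPM. Without deletion 1, the estimate for Ero1l was -0.01. P4ha2, a collagen prolyl hydroxylase whose promoter is shown above, was at 14.7, 6.83, 28.7 and 34.2 against 108 and 29.3 CPM.

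Glycolytic genes went the same way, with 17 of 19 estimates above 0, a median of 0.57 and 3 members higher without overlap. Of all genes tested, 4.68% were higher in that way. Gpi1, the glucose phosphate isomerase, was at 389, 405, 413 and 325 against 1050 and 427 CPM, so deletion 3 stood just over the controls. Gapdh was at 1241, 1112, 871 and 646 against 2434 and 727 CPM. Aldoa is part of this list, and it was one of the 2 members with an estimate below 0. Stress genes included Ddit3, a factor of the integrated stress response, at 5.55, 4.07, 10.4 and 10.9 against 31.4 and 15 CPM, and Eda2r, a p53 target, at 33.7, 21.7, 30.9 and 31.2 against 103 and 37.2 CPM.

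**Figure D5:**
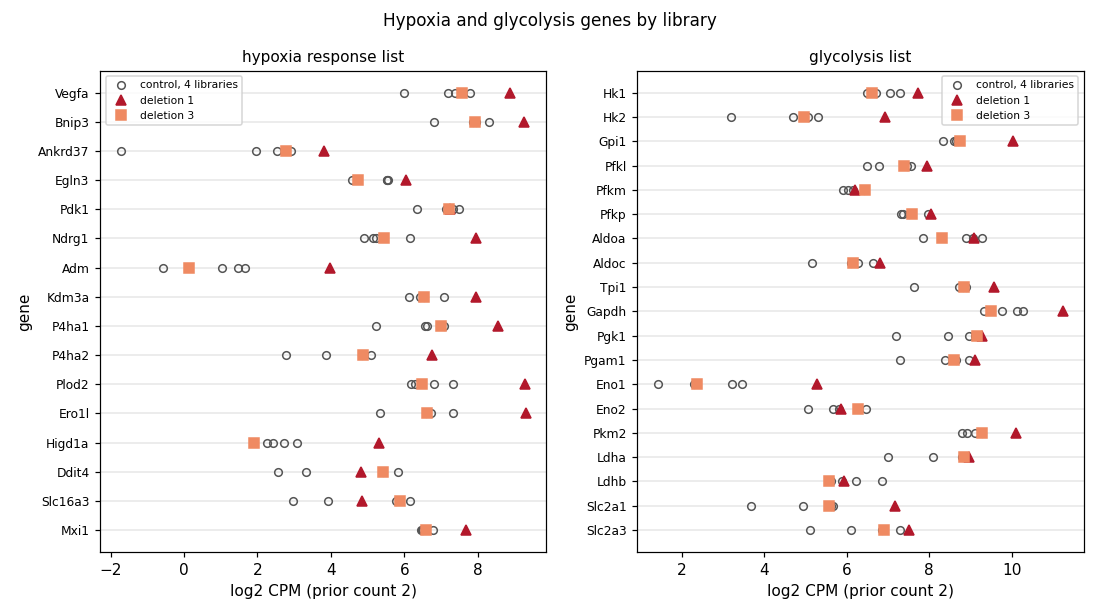
Log2 CPM (horizontal axis, prior count 2) of the tested hypoxia (left) and glycolysis (right) genes, with 4 control libraries as open circles, deletion 1 as a triangle and deletion 3 as a square. Deletion 1 lies right of the controls for most hypoxia genes, while deletion 3 lies among them.

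Of markers for other cell types, Cdh5, an adhesion molecule of endothelium, was at 7.03, 12.8, 1.02 and 6.34 against 0.29 and 0.134 CPM. Its estimate was -5.01 ± 1.04 (SE), and DESeq2 called it. Tie1 of the same list was also lower without overlap, at means of 0.76 CPM in control and 0.254 CPM in deletion. Pecam1 and Kdr of that list overlapped. Tcfap2b, a neural crest factor, lay at -3.54 ± 0.999 (SE) without overlap. Nrp2, a semaphorin receptor, was at 120, 130, 133 and 126 against 275 and 237 CPM, or 1.01 ± 0.228 (SE). Fabp7 of radial glia was at 220, 161, 177 and 165 against 80.5 and 95.2 CPM, or -1.04 ± 0.29 (SE). Cytosolic ribosomal protein genes had estimates above 0 for 71 of 74, with a median of 0.28. Of these, 7 were higher without overlap, against 4.68% of all genes. Genes of the mitochondrial respiratory chain had a median of -0.13, with 44 of 57 below 0. The deletion libraries differed in both lists. The median ribosomal gene stood at -0.04 in deletion 1 and 0.58 in deletion 3, against -0.28 to 0.31 in the controls, and the median respiratory chain gene at -0.44 and 0.18, against -0.31 to 0.27. Without deletion 1 the medians of the fitted values of the cytosolic ribosomal proteins and the mitochondrial respiratory chain were 0.57 and 0.15, and without deletion 3 they were -0.11 and -0.51, so both changed sign with the library left out.

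The deletion effect in neurons was also tested against that in NPCs and ESCs over all genes. A difference from NPCs passed the adjusted threshold for 1 of 19996 genes (0.005%), and a difference from ESCs for 0 (0%), where 569 genes had an unadjusted p below 0.05 and DESeq2 called 23. The 1 gene was Col5a2, a fibrillar collagen chain. In the joint scaling it averaged 99.7 ± 48.9 CPM (SD) in control and 121 ± 41.6 CPM in deletion neurons, but 136 ± 56 CPM in control and 2.06 ± 1.96 CPM in deletion NPCs. The difference between stages was 6.29 ± 0.965 on the log2 scale, with an adjusted p of 0.0181 by edgeR. Without control 1, 2 or 3 or without deletion 1 of the neurons, 0 genes passed, and without deletion 3 the number was 40.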

How the data were processed

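RNA was measured in 28 libraries of mouse cells by stranded total RNA sequencing with paired reads of 75 bases, per the labels; 8 neuron libraries carry the main test. The deposited values are expected counts per gene; the submitters' processing notes name RSEM 1.3.0, STAR 2.6.0c and the build mm9. The authors' deposited table holds their DESeq2 1.22.2 results: log2 fold changes, p-values and standard errors (treated as a score), with gene coordinates taken as mm9. Strand use in counting is not given in the sources used here.

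Counts were rounded, and 92 spike-in entries of 29968 were left out. Columns without a sample numbered 0. edgeR 4.0.16 in R 4.3.3 fitted control, deletion and duplication-deletion neurons together (robust quasi-likelihood, TMM, filterByExpr by group, no block), with two-sided tests and Benjamini-Hochberg adjustment over all genes at 0.05. CPM are scaled by TMM. DESeq2 1.42.0 and limma 3.58.1 (voom) were alternatives, besides other size factors, no filter on low counts, 6 libraries only, a block and leaving out libraries. The edgeR test was also run on simulated data, but the outcome is not given here, so no error rate is claimed from it. Libraries of a group were not copies of each other.

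The members and the 44 gene lists were chosen with earlier results of these data known, and lists are described by counts and medians without a test. Genes were named by rule: all tested interval genes, the leading member by p of each list (up to 3 where any passed), the 5 genes outside the interval with the smallest p per direction, up to 10 per direction past the threshold by size of change (none passed), and up to 5 per direction of each stage difference. Other named genes were chosen after their values were seen. The result for 1 gene that the rule names is not reported here.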

Additional observations from a re-analysis of the deposited data

Results flagged for a closer look

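Among the control neurons, 140 values were searched for a library far from the other 3, and 7 were found. Chance flags about 1 in 20, so the number found is no more than chance gives. The values below are therefore a description only. Control 3 stood apart for Sez6l2 (103 CPM against 43.9 to 47.5), Pcdh8 (50.1 against 19.8 to 21.8) and Insm1 (18.2 against 9.13 to 10.3). Control 1 stood apart for Krt18 (0 CPM against 0.922 to 1.09) and Pcdha3 (11.5 against 1.82 to 3.03). Control 2 stood apart for BC064451 (0.213 CPM against 0.0151 to 0.0401) and Rspo2 (16 against 5.38 to 6.81).

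Col5a2 had a deletion effect that differed between stages, at 0.29 in neurons and -6.02 in NPCs on the log2 scale. The joint fit gave a difference of 6.29, with an adjusted p of 0.0181 in edgeR's test of the difference. As given above, this call depended on which neuron libraries were kept.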

How the results depend on the processing

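With 2 deletion libraries, leaving out one leaves a lone sample, assumed to vary like the other groups. The number of genes past the threshold was 68 with DESeq2, and ran from 0 to 1 over leaving out single libraries; it was 0 with limma-voom, DESeq2 size factors in edgeR, no filter on low counts, 6 libraries only, and without both libraries numbered 1 (chosen after seeing the data). The number of genes with unadjusted p below 0.05, lower in the deletion, was 1602 without deletion 3 and 206 without deletion 1. That of genes with unadjusted p below 0.05, higher in the deletion, was 977 and 86. The 1 gene was called without deletion 3. A replicate block gave 13 genes, among them En2, Chrna6, En1, Pcdhgb2 and Pcdhgb1; the same-numbered libraries had correlations of 0.423, 0.495, 0.0819 and 0.288, which does not show that numbers pair the samples. The cause of these changes was not tested.

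The interval median ran from -1.48 (without deletion 3) to -0.62 (without deletion 1), and was -0.75 without both libraries numbered 1. The number of interval genes without overlap ran from 14 to 18 over leaving out single libraries. Stage differences counted 8 genes from NPCs and 23 from ESCs with DESeq2, and ran from 0 to 40 and from 0 to 19 over leaving out single libraries. Over leaving out single libraries, Stard4 ran from -0.01 to 1.59, Ero1l from -0.01 to 2.66 and Plod2 from -0.25 to 2.55, the lowest of each without deletion 1 and the highest without deletion 3. Depth limits interval genes with few counts, such as Qprt, with an SE of 1.63. No alternative was run for the contrast with duplication-deletion neurons.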

Other observations

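Several further gene groups hold members outside the control range, with 0 past edgeR's adjusted threshold. Over all genes tested, 5.21% were lower and 4.68% higher without overlap, so a list can hold such members without differing from other genes. Of 38 imprinted genes tested, with a median log2 fold change of 0.02, 4 were lower without overlap, among them the non-coding RNAs Meg3, Rian and Mirg of one imprinted domain. Meg3 was at 658, 1073, 1136 and 828 CPM in controls 1 to 4 and at 623 and 492 CPM in deletions 1 and 3. Rian and Mirg lay at -0.71 ± 0.349 and -1.07 ± 0.336 (SE). Immediate early genes had a median of 0.57 over 17 members. Arc, a synaptic plasticity gene, was at 2.27, 0.851, 4.57 and 2.33 against 0.363 and 0.631 CPM, while Junb, an AP-1 subunit, was at 0.454, 1.37, 4.47 and 5.26 against 5.39 and 9.81 CPM. Both lay outside the control range, on opposite sides. Interferon response genes had a median of -0.44 over 20 members, with 4 lower without overlap. Usp18, a brake on interferon signalling, was at 1.32, 0.78, 0.361 and 0.741 against 0 and 0.0765 CPM.

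Adhesion genes held members on both sides. Nrxn3, a presynaptic neurexin, was at 131, 175, 152 and 81.5 against 70.3 and 68 CPM, and Epha5, an ephrin receptor, lay at -0.95 ± 0.375 (SE) without overlap. Lama5, a laminin chain, was at 3.56, 11.4, 14.9 and 16.1 against 42.2 and 23.9 CPM. Ddx3y, a gene of the Y chromosome, was at 71.9, 52, 69.9 and 87.4 against 134 and 93.8 CPM, so all 6 libraries expressed it. These genes were chosen after their values were seen, except Arc, Usp18, Lama5 and Ddx3y.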
